A study of Mus musculus with 2 samples.

Results

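The nuclear genes named as subunits of the mitochondrial respiratory chain and of ATP synthase were compared between the aortic arch and the central thoracic aorta of the mouse. They were taken from the array by name, as every probe whose gene name begins with Nduf, Uqcr, Sdha to Sdhd, Atp5 or Cox4 to Cox7, with Cox7a1 left out. This gave 114 of 41150 probes and 78 of 27380 gene names: 37 of complex I, 4 of complex II, 7 of complex III, 14 of complex IV and 16 of complex V. The name rule also picked up Ndufaf1, an assembly factor of complex I, and Cox7a2l, a factor of respiratory supercomplexes. It picked up 2 genes that encode no subunit as well, Atp5s and Cox4nb, whose current symbols are Dmac2l and Emc8. The rule itself uses names, not measured values.

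The arch pool came from the root, the arch and the first 2 mm of thoracic aorta, a region prone to atherosclerosis per the labels, and the thoracic pool from the following 6 mm, which the labels call resistant. Both came from wild-type C57Bl/6 mice of 16 weeks, 3 males and 3 females, whose RNA was combined into 1 pool per region after perfusion with triton X-100, a detergent, to strip the endothelium. Both pools went onto each of 2 two-colour Agilent whole-genome arrays. Array 1 carried the arch in Cy5 and array 2 carried it in Cy3. Results are given as the log2 of the arch signal over the thoracic signal, and the ± value is how far each array lay from the mean of the pair, a technical error only. With 1 pool per region there is no biological replicate, so no p-value is given, and precision is limited by there being 2 arrays.

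The respiratory chain of the inner mitochondrial membrane passes electrons from NADH (complex I) and succinate (complex II) through ubiquinone, complex III and cytochrome c to oxygen at complex IV, and complex V uses the resulting proton gradient to make ATP. Most subunits are encoded in the nucleus and a small number in mitochondrial DNA. Several subunits of complex IV have a widely expressed isoform and another made chiefly in heart, skeletal muscle, brown fat or lung. In smooth muscle of the vessel wall the chain works beside a high rate of glycolysis.

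None of the 78 genes of the name rule differed between the regions by the fold rule, in which a ratio must pass the fold on both arrays, the same way. At 1.5-fold, 0 of 78 were higher and 0 lower in the arch, against 0.257% higher and 0.229% lower of the 21366 genes measured, or 0.487% either way. At 1.2-fold, 0 of 78 were again higher and 0 lower, where the shares of all genes were 1.52% and 1.01%, or 2.53% either way. No member probe passed either fold, although Cox7a2l and Cox6a2 passed 1.2-fold under other settings given below with their values. By loess the mean ratios ran from -0.35 (Cox7a2l) to 0.28 (Ndufb8), and 74.4% lay within 0.1 of 0, compared with 79.0% of all genes. Most genes were dimmer than the members, and the order turned within the group of the brightest genes, described below. In that group, again by loess, 71.0% of 62 members lay within 0.1 of 0, compared with 64.0% of the 2075 other genes. With median centring both medians of the group were further than 0.1 from 0, at -0.107 for the members and -0.170 for the others. By loess, 64 of the 2075 other genes were higher and 43 lower in the arch at 1.2-fold, few of the group, and 0 of the 62 members passed. Cox7a2l, which passed under other settings, is one of the 62. The SD of the half-difference between the arrays was 0.07 both for the members and for all genes, and the members' median half-difference was 0.044. As these are bulk samples, fewer cells of a type and less RNA per cell cannot be told apart.

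The small ratios leaned to the arch under loess normalisation and to the thoracic aorta under median centring. With loess the median over the 78 genes was 0.043, beside 0.002 over all genes. Of the 78, 60 (76.9%) had a mean ratio above 0, beside 51.5% of all genes. With median centring the members' median was -0.108 and 7 were above 0, beside a median of -0.042 over all genes. In the brightest of 10 equal groups of genes, 6 of 62 members were then above 0, and so were 9.59% of the 2075 other genes. The loess ratios were above 0 on both arrays for 40 members (51.3%) and below 0 on both for 6 (7.69%). The shares of all genes were 28.4% and 26.5%. The sign was thus the same on both arrays for 46 of 78 (59.0%), compared with 54.9% of all genes. In the brightest of the 10 groups, again by loess, 53.2% of the members were above 0 on both and 8.06% below 0 on both. Of the other genes of that group, 29.5% were above 0 on both and 29.8% below. The sign was the same on both for 61.3% of these members, compared with 59.3% of the other genes. Across the 78 genes the ratios on the 2 arrays correlated with Pearson's r of 0.34 and Spearman's rho of 0.20, values that describe these arrays, since all points share the same hybridisations. The sum of the members' signals was 343281 units in the arch, against 322841 in the thoracic aorta on array 1, a ratio of 1.06. On array 2 it was 334106 units in the arch, against 327497 in the thoracic aorta, a ratio of 1.02.

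**Figure D1:**
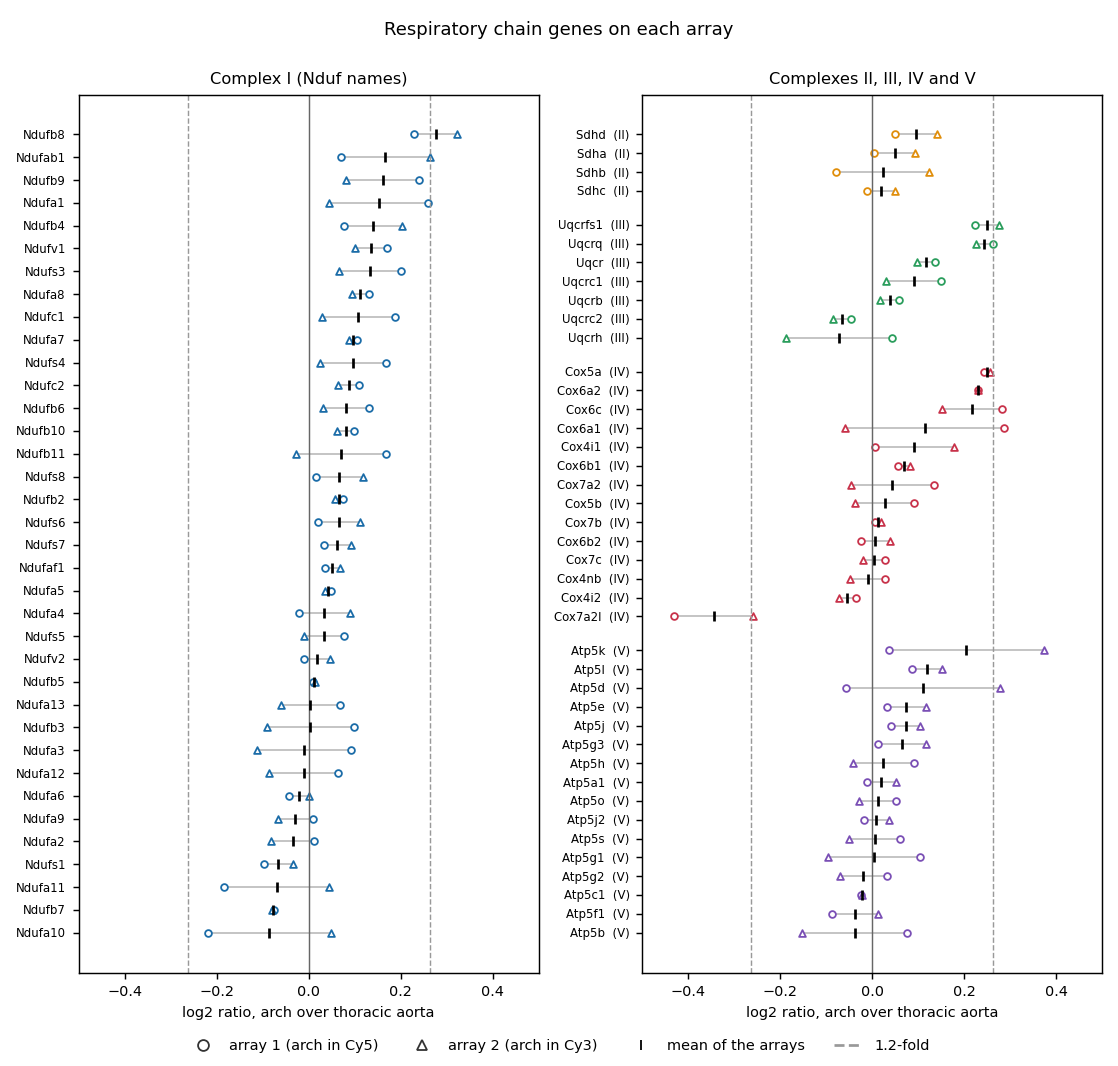
Log2 ratio of arch over thoracic aorta (horizontal axis, loess) of the genes reported by name, complex I on the left and complexes II to V on the right, each gene on its own line. Circles are array 1, triangles array 2, black bars their mean and dashed lines 1.2-fold; most means lie right of 0 here, and left of it with median centring, and Cox7a2l has the lowest, at -0.35.

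The members were among the brightest genes on the arrays, where loess and median centring gave the most different ratios. Of the 78 genes, 62 were in the brightest of 10 equal groups of the measured genes, and their median brightness percentile among kept probes was 97.8. Within that group the members' median was 0.063 by loess, with 48 of 62 above 0, and that of the other 2075 genes was -0.0005. Median centring gave -0.107 for the same members and -0.170 for the others, and the scanner software's own ratios gave 0.050 and -0.003. In these settings the members' median lay above that of the other genes of the group, although the sign of their ratios turned. The members were also the brighter, with a median log2 signal of 12.02 against 10.70 for the others of the group, and the difference was not tested. Among the 78 genes the ratio had little relation to brightness (Pearson's r 0.15, Spearman's rho 0.13).

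**Figure D2:**
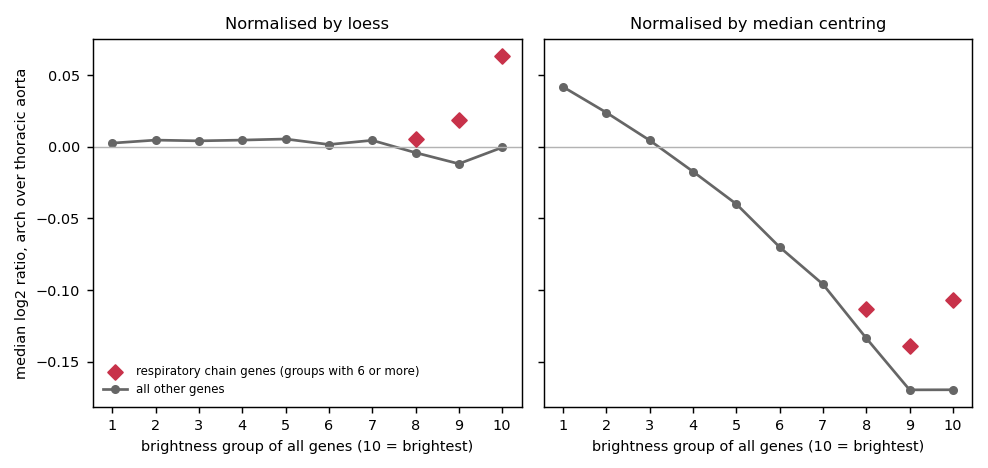
Median log2 ratio of arch over thoracic aorta (vertical axis) in 10 equal groups of genes by brightness (horizontal axis), by loess on the left and median centring on the right. Red diamonds are respiratory chain genes, in groups with at least 6 of them, and grey circles all other genes; in the brightest group the diamonds are at 0.063 and -0.107 and the circles at -0.0005 and -0.170.

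Brightness here is the signal of a probe, and it does not tell how abundant a transcript was relative to another. Brighter members were not closer between the arrays: their half-difference had little relation to brightness (Pearson's r 0.10, Spearman's rho 0.12). No member probe was saturated on either array, and none had a saturated pixel. The brightest was the probe of Ndufa13, a membrane-arm subunit of complex I, whose highest raw signal was 22468 units, 34.4% of the scanner's limit. The next were Cox6a1 (20379 units), Cox6c (19790) and Uqcrh (19711), followed by Atp5h, Atp5c1 and Ndufb11. Of the 114 member probes, 12 (10.5%) exceeded 10000 units, compared with 0.666% of all probes. For comparison, 21 of the 41150 probes were saturated, and they included 5 of the 85 cytosolic ribosomal protein genes, a family that was brighter still (median percentile 99.6).

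All 78 genes were detected well above background in each pool on each array, so none was lost to the filter on dim probes. Their probes were of unequal quality: all 95 with a RefSeq transcript accession were kept, at a median signal of 2460 units, while of 19 with a cDNA accession 12 were kept and 7 were not, at a median of 78.0 units. By complex, 31 of 37 genes of complex I, 2 of 4 of complex II, 7 of 7 of complex III, 9 of 14 of complex IV and 13 of 16 of complex V were in the brightest of the 10 groups. The dimmest gene was Cox4i2, at percentile 9.37. Of 23 genes with several kept probes, 8 had probes of opposite sign, which at ratios this close to 0 is a small difference: the median range between probes was 0.074. Ndufb8 was the single gene whose probes differed by more than 0.3.

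**Figure D3:**
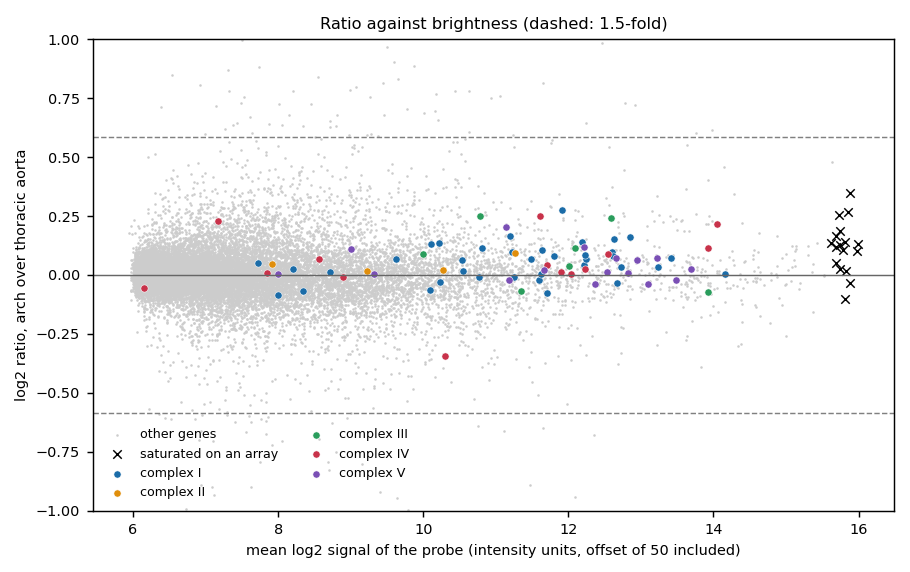
Log2 ratio of arch over thoracic aorta (vertical axis, loess, cropped at 1 and -1) against the mean log2 signal of each gene's probe (horizontal axis, intensity units with the offset of 50). Coloured points are the 78 respiratory chain genes by complex, grey points the other genes, crosses genes saturated on an array and dashed lines 1.5-fold; no member reaches a dashed line and none is saturated.

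Complex I, the NADH dehydrogenase, had a median ratio of 0.062 by loess with 28 of 37 genes above 0, and of -0.105 by median centring. Ndufb8, an accessory subunit of the membrane arm, had the highest ratio of the members by loess with the offset of 50, and ranked behind Cox6a2 in the other 4 settings. Its brightest probe gave 4313 and 4209 units in the arch on arrays 1 and 2, against 3680 and 3365 in the thoracic aorta, a log2 ratio of 0.28 ± 0.05. The arch was the higher pool on both arrays, but a second, dim probe from a cDNA gave 110 and 117 units in the arch, against 119 and 121 in the thoracic aorta, a ratio of -0.07 ± 0.03. Ndufab1, the mitochondrial acyl carrier protein that is also part of complex I, gave 2412 and 2576 units in the arch, against 2298 and 2146 in the thoracic aorta, and its ratio was 0.17 ± 0.10. Most of that came from array 2 (0.26), as array 1 gave 0.07.

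The 7 core subunits of complex I, which together hold the flavin and the iron-sulphur clusters of the peripheral arm, had a median of 0.062 by loess, with 6 above 0, and the 29 other subunits had 0.066, with 21 above 0, while by median centring these medians were -0.105 and -0.107. The core subunits ranged from 0.14 ± 0.03 for Ndufv1, which binds NADH, through Ndufs3 (0.13 ± 0.07) and Ndufs8 (0.07 ± 0.05) to -0.07 ± 0.03 for Ndufs1. The lowest accessory subunits were Ndufa10 and Ndufb7. Ndufa10 gave 230 and 270 units in the arch, against 268 and 261 in the thoracic aorta, so the arrays disagreed in sign (-0.09 ± 0.13). Ndufb7 gave 3312 and 3174 units in the arch, against 3491 and 3352 in the thoracic aorta, a small but closely repeated ratio of -0.08 ± 0.00. Ndufa4, counted here under its old name but now assigned to complex IV, measured 0.03 ± 0.06, and the assembly factor Ndufaf1 0.05 ± 0.02.

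Complex II, succinate dehydrogenase, is shared with the tricarboxylic acid cycle. All 4 of its genes had a mean above 0 by loess, with a median of 0.035, but the arrays gave medians of -0.004 and 0.108, and median centring gave -0.109. Sdhd, a membrane anchor, gave 2493 and 2591 units in the arch, against 2411 and 2351 in the thoracic aorta (0.09 ± 0.05). Sdha, the flavoprotein that oxidises succinate, measured 0.05 ± 0.04, the iron-sulphur subunit Sdhb 0.02 ± 0.10 and the other anchor Sdhc 0.02 ± 0.03. Sdhb and Sdhc had opposite signs on the 2 arrays.

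Complex III, the cytochrome bc1 complex, had a median of 0.090 by loess with 5 of 7 genes above 0, and of -0.079 by median centring. It was the highest of the complexes in the mean of the arrays, but array 1 gave 0.136 and array 2 gave 0.029, which was below complexes I and II on that array. Uqcrfs1, the Rieske iron-sulphur protein, gave 1819 and 2041 units in the arch, against 1558 and 1685 in the thoracic aorta, a ratio of 0.25 ± 0.03. Uqcrq, a small subunit of the complex, gave 6919 and 6490 units in the arch, against 5773 and 5551 in the thoracic aorta, a ratio of 0.24 ± 0.02, and its second, dim probe gave 0.02 ± 0.03. For both genes the arch was higher on each array and the arrays lay close together. The other genes were nearer to 0: Uqcr, now called Uqcr11, measured 0.12 ± 0.02, the core protein Uqcrc1 0.09 ± 0.06 and Uqcrb 0.04 ± 0.02. The second core protein, Uqcrc2, gave 2630 and 2441 units in the arch, against 2716 and 2592 in the thoracic aorta (-0.07 ± 0.02), and the hinge protein Uqcrh, with 16446 and 14076 in the arch, against 15964 and 16025 in the thoracic aorta, measured -0.07 ± 0.12, with opposite signs on the arrays.

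Complex IV, cytochrome c oxidase, had a median of 0.035 by loess with 11 of 14 genes above 0, and of -0.093 by median centring, and it held both the most repeatable ratios and the lowest one. Cox5a, a regulatory subunit on the matrix side, gave 3403 and 3423 units in the arch, against 2874 and 2868 in the thoracic aorta, a ratio of 0.25 ± 0.01. Cox6c, a small membrane subunit, gave 18718 and 17898 units in the arch, against 15404 and 16110.0 in the thoracic aorta, a ratio of 0.22 ± 0.06. Cox6a2, the isoform of heart and skeletal muscle, gave 162 and 149 units in the arch, against 138 and 127 in the thoracic aorta, a ratio of 0.23 ± 0.00. It was a dim probe, and without the offset of 50 its ratio was 0.35 ± 0.01, above 1.2-fold on both arrays, as were 5.20% of all genes in either direction in that setting.

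Cox7a2l, which links complexes III and IV in supercomplexes, had the lowest ratio of the 78 genes. It gave 1087 and 1147 units in the arch, against 1467 and 1373 in the thoracic aorta, on 2 arrays that read the same pools. The ratio was -0.43 on array 1 and -0.26 on array 2, or -0.35 ± 0.09, which was just short of 1.2-fold on array 2. It was past 1.2-fold on both arrays without the offset (-0.36), by the scanner software's ratios (-0.36) and by median centring (-0.51), and it ranked 78th of 78 in each of these settings. Of all genes, 5.20%, 6.68% and 3.80% passed 1.2-fold in either direction in those settings, in that order. By loess with the offset of 50 the next lowest member was Ndufa10 (-0.09). Without the offset and by the scanner software's ratios it was Cox4i2 (-0.19), a dim probe, and by median centring Ndufb7 (-0.25). Cox7a2l had 1 probe on the array. C57BL/6 mice are known to carry a shortened form of the Cox7a2l protein, and the array does not show which form a transcript encodes.

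Complex V, the ATP synthase, had a median of 0.015 by loess with 12 of 16 genes above 0, and of -0.149 by median centring. The loess median was the lowest of the complexes in the mean of the arrays but on neither array alone. The 5 genes of its catalytic F1 part had a median of 0.020 by loess, and the 10 others that encode subunits had 0.017, while median centring gave -0.150 and -0.153. Atp5k, the e subunit of the membrane part, gave 2256 and 2581 units in the arch, against 2202 and 1993 in the thoracic aorta, a ratio of 0.20 ± 0.17 that came almost wholly from array 2. Atp5l, the g subunit, gave 4849 and 5046 units in the arch, against 4567 and 4542 in the thoracic aorta (0.12 ± 0.03). Atp5b, the catalytic beta subunit, gave 9158 and 8217 units in the arch, against 8691 and 9130 in the thoracic aorta (-0.04 ± 0.11), and Atp5f1, a subunit of the stalk, gave 5170 and 5287 in the arch, against 5492 and 5239 in the thoracic aorta (-0.04 ± 0.05). In both the arrays had opposite signs. Atp5c1, the gamma subunit that turns within F1, was nearly equal in the pools on both arrays (-0.02 ± 0.00). The 3 genes that encode the same c subunit of the rotor measured 0.06 ± 0.05 (Atp5g3), 0.00 ± 0.10 (Atp5g1) and -0.02 ± 0.05 (Atp5g2).

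On single arrays, 2 members passed 1.2-fold towards the arch on array 1, Cox6a1 and Cox6c, and 5 on array 2, Ndufb8, Ndufab1, Uqcrfs1, Atp5k and Atp5d. No gene is in both lists because no member passed on both arrays in this setting. Cox7a2l passed towards the thoracic aorta on array 1. Of all genes, 5.53% passed in either direction on array 1 alone and 4.83% on array 2 alone. Atp5d, the delta subunit of F1, gave 462 and 613 units in the arch, against 481 and 506 in the thoracic aorta, so it was below 0 on array 1 (-0.06) and above 0 on array 2 (0.28). Cox6a1 had the widest split between the arrays, 0.29 on array 1 and -0.06 on array 2. Across 5 settings of the processing, Ndufb8 ranked 1 to 2 of 78, Uqcrfs1 2 to 4, Cox5a 3 to 4, Uqcrq 4 to 5, Cox6a2 1 to 5, and Cox6c and Atp5k 6 to 7. These settings were loess with either offset, the scanner software's ratios, the value table, which nearly repeats those ratios, and median centring. All of them took the brightest probe of a gene, and with the mean over kept probes Ndufb8 measured 0.10.

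The promoters of 4 of these genes are shown, from RefSeq on GRCm38.p6, each from 250 bases before to 50 after the gene's start: the lowest member (Cox7a2l), a pair from the top of the list (Ndufb8 and Cox5a) and Atp5k, which holds motifs of 2 of the factors that drive nuclear respiratory genes. They lie at chr17:83514284-83514583 (minus strand), chr19:44555393-44555692 (minus), chr9:57520982-57521281 (plus) and chr5:108434350-108434649 (minus), in that order. Capitals mark the motif letters found.
Cox7a2l: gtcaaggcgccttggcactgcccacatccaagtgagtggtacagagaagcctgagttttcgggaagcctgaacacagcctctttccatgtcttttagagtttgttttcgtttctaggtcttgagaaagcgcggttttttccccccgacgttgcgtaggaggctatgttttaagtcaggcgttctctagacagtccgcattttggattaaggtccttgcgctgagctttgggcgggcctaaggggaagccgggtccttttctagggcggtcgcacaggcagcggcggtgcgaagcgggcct
Ndufb8: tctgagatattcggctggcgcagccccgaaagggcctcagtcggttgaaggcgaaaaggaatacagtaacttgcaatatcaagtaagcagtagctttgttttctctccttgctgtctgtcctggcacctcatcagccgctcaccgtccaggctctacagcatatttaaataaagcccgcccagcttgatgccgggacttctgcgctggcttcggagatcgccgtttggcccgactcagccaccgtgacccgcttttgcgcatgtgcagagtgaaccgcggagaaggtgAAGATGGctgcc
Cox5a: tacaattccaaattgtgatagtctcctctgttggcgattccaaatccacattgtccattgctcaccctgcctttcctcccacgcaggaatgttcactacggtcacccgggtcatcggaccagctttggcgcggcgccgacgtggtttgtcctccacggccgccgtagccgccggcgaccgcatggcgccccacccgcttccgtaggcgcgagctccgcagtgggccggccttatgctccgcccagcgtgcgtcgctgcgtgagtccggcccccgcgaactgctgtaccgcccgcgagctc
Atp5k: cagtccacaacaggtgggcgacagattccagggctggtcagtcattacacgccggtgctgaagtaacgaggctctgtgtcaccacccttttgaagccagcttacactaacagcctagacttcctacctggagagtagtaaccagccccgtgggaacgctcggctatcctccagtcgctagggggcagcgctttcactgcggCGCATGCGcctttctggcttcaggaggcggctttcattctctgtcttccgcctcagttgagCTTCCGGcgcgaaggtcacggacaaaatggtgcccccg

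The 4 motifs searched on both strands were CGCATGCG for NRF1, the core of a longer consensus, CCGGAAG for GABP and other ETS factors, AAGATGG for YY1 and TCAAGGTCA for the oestrogen-related receptors. Promoters were matched for 64 of the 78 members, and those of Uqcrq and Cox6a2 were not among them. The NRF1 motif was in 8 of the 64 (12.5%), those of Atp5g2, Atp5k, Atp5l, Cox6a1, Ndufa8, Ndufa11, Uqcr and Uqcrc1, and in 1.91% of all 27025 promoters of the table. The ETS motif was in 15 (23.4%) and in 9.12% of all, the YY1 motif in 10 (15.6%) and in 6.48% of all, and the oestrogen-related receptor motif in 2 (3.12%) and in 0.407% of all. The shown promoter of Ndufb8 holds the YY1 motif and that of Atp5k the NRF1 motif and the ETS motif, the last as its reverse complement CTTCCGG. Those of Cox7a2l and Cox5a hold none of these letters. The members with the NRF1 motif had a median ratio of 0.113 and the 56 without it 0.043, and those with the ETS motif had 0.074 and the 49 without it 0.034. For the YY1 motif the order was turned, with 0.036 and, for the 54 without it, 0.050, and for the oestrogen-related receptor motif the medians were 0.079 and, for the 62 without it, 0.046. These differences were not tested.

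Isoform pairs of complex IV differed in how far the restricted form departed from the common one. Cox7a1, the isoform of heart, muscle and brown fat, was outside the name rule, and it gave 1376 and 1182 units in the arch, against 716 and 663 in the thoracic aorta (0.89 ± 0.05). Its common counterpart Cox7a2 gave 3368 and 3422 units in the arch, against 3071 and 3534 in the thoracic aorta (0.04 ± 0.09). The ratio of Cox7a1 was higher than that of Cox7a2 by 0.84 ± 0.04 on the log2 scale. Cox8b, also outside the rule, gave 2192 and 1986 units in the arch, against 1214 and 1215 in the thoracic aorta (0.78 ± 0.07), and its ratio was higher by 0.79 ± 0.01 than that of the common Cox8a, which measured -0.005 ± 0.08.

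Pairs inside the name rule were closer. Cox6a2 and the common Cox6a1 differed by 0.12 ± 0.17, less than the distance between the arrays, and by 0.28 ± 0.14 in the scanner software's ratios. Cox4i2, the lung isoform, gave 70.1 and 68.6 units in the arch, against 71.9 and 72.2 in the thoracic aorta, signals little above the offset of 50. Its ratio minus that of the common Cox4i1 was -0.15 ± 0.10 by loess and 0.06 ± 0.08 by median centring. Cox6b2, the testis isoform, measured 0.01 ± 0.03 and the common Cox6b1 0.07 ± 0.01. Cox7b2, named so only by its current symbol, was dim and measured -0.01 ± 0.04, and the common Cox7b 0.01 ± 0.01. The ratio of Cox7a2l, related in sequence to Cox7a2, minus that of Cox7a2 was -0.39 ± 0.18. No value is given for Ndufa4l2, the counterpart of Ndufa4.

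**Figure D4:**
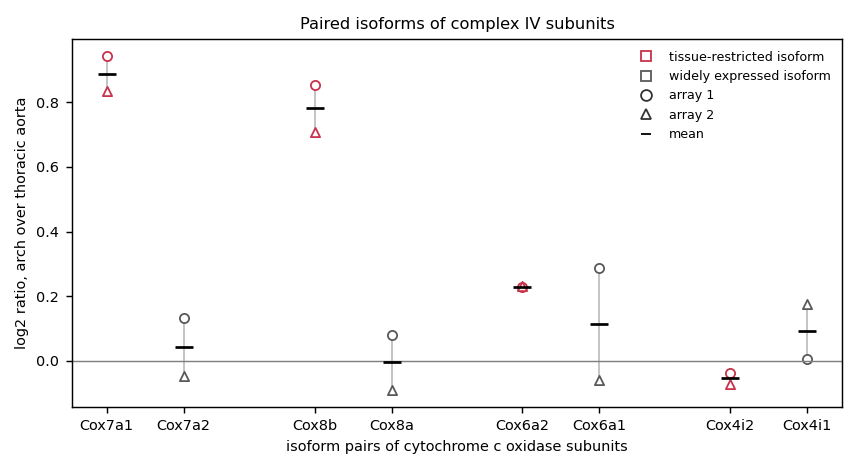
Log2 ratio of arch over thoracic aorta (vertical axis, loess) of 4 pairs of complex IV isoforms, the tissue-restricted form (red) beside the widely expressed one (grey). Circles are array 1, triangles array 2 and bars their mean; Cox7a1 (0.89) and Cox8b (0.78) stand above their partners on both arrays, while the arrays of Cox6a1 straddle the value of Cox6a2, and Cox4i2 lies below Cox4i1 here and above it with median centring.

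Genes that act next to the chain gave the following values by loess. Among 12 measured chain genes outside the name rule (cytochrome c, the electron transfer flavoprotein and uncoupling proteins among them) the median was 0.118, and 3 passed 1.2-fold towards the arch: Cox7a1, Cox8b and Ucp1, the uncoupling protein of brown fat (0.41 ± 0.05). Of 13 genes of fatty acid oxidation 12 were above 0, with a median of 0.145, and 1 passed 1.2-fold, Acadl, the long-chain acyl-CoA dehydrogenase (0.34 ± 0.05). Acaa2, the thiolase of the same pathway, measured 0.22 ± 0.02, and Cpt2, a carnitine palmitoyltransferase, -0.04 ± 0.01. The 17 genes of the tricarboxylic acid cycle had a median of 0.006 and none passed 1.2-fold. They ranged from Idh3a (0.13 ± 0.07), a subunit of isocitrate dehydrogenase, to Suclg2 (-0.08 ± 0.05), of succinyl-CoA synthetase.

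The 18 measured assembly factors had a median of -0.0003, from Coa5 (0.10 ± 0.11) to Surf1 (-0.12 ± 0.02), which is needed to build complex IV, and 0 passed 1.2-fold. The 12 regulators of mitochondrial genes, such as Tfam (0.04 ± 0.05), had a median of -0.034 and 0 passed. Of 12 carriers and outer membrane proteins, with a median of -0.029, 1 passed 1.2-fold towards the thoracic aorta, Vdac1, the main channel of the outer membrane (-0.30 ± 0.02). Among 78 mitochondrial ribosomal protein genes the median was 0.022 with 62.8% above 0, and Mrps6 (0.83 ± 0.07) was the one past 1.5-fold. The cytosolic ribosomal protein genes had a median of 0.013 with 56.5% above 0, and 0 passed either fold. The lists were measured in the same pools, and no difference between them was tested.

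**Figure D5:**
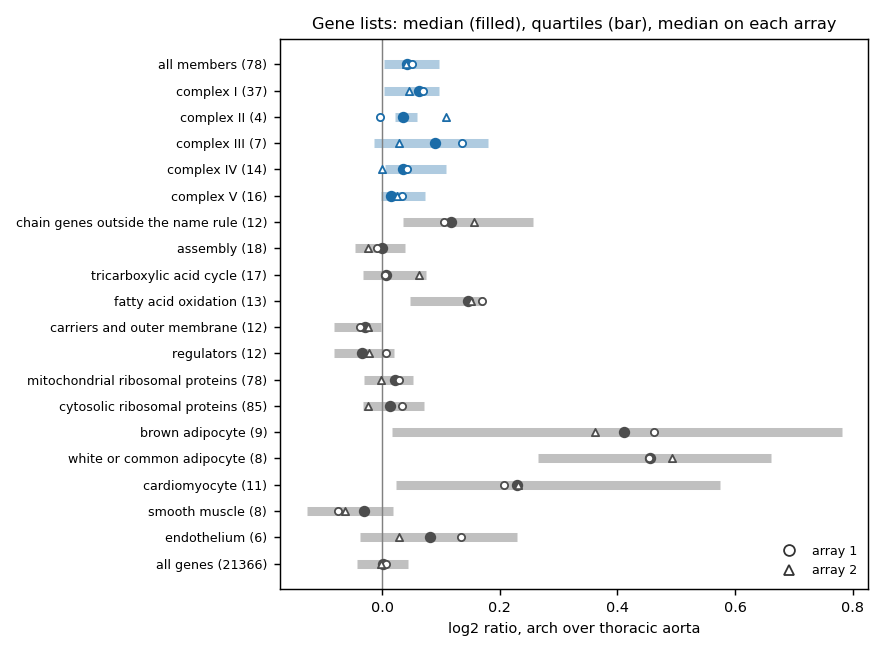
Log2 ratio of arch over thoracic aorta (horizontal axis, loess) for gene lists, with the number of measured genes in brackets: filled points are medians, bars the range from lower to upper quartile, open circles and triangles the medians on array 1 and array 2. The respiratory chain lists (blue) lie between 0.015 and 0.090 here and below 0 with median centring, those of brown and white adipocyte markers at 0.41 and 0.46, and all genes at 0.002.

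Markers of other cells also differed between the pools. Of 9 brown adipocyte markers 7 were above 0 and 5 passed 1.2-fold towards the arch, with a median of 0.41, and 2 of the markers are the isoforms Cox7a1 and Cox8b. Their summed signal was 11235 and 10938 units in the arch on arrays 1 and 2, against 6900 and 7246 in the thoracic aorta. Of 8 white or common adipocyte markers 7 were above 0, with a median of 0.46, and their sum was 42241 and 40805 units in the arch, against 31542 and 32366 in the thoracic aorta. Among 11 measured cardiomyocyte markers, Cox6a2 included, 8 were above 0, with a median of 0.23 and a sum of 15329 and 15160 units in the arch, against 13884 and 15731 in the thoracic aorta. Of these, 3 passed 1.5-fold towards the arch, the atrial light chain Myl7 (2.33 ± 0.01), Tnnt2 (1.59 ± 0.03) and Sln (0.87 ± 0.04), while most of the sum was Actc1 (-0.05 ± 0.11). Myh6 and Ckmt2 were not above background. The part of fat or heart cells in the respiratory chain ratios was not tested.

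The labels speak of smooth muscle cells. The sum of 8 smooth muscle markers was 156505 and 146813 units in the arch, against 154584 and 150929 in the thoracic aorta. Acta2 and Tagln, both saturated, made up most of it, so the sum cannot show how equal the pools were. Other markers were far dimmer, such as Des with 96.5 and 90.2 units in the arch and Smtn with 133 and 155. The median ratio was -0.03 and none of 8 passed 1.2-fold. The lowest were Des (-0.22 ± 0.01) and Myh11 (-0.22 ± 0.03). On both arrays 3 of 8 were below 0, and 0 were above 0 on both. Endothelial markers were dim after the detergent, with a sum over 6 genes of 624 and 647 units in the arch, against 559 and 608 in the thoracic aorta.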

How the data were processed

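Per the submitters' processing notes, arrays were read with Agilent Feature Extraction 9.1.1.1. The deposited scanner files give spot and local background intensity in each dye, and the software's log10 ratio of processed Cy5 over Cy3 signals, per the file headers. The series' value table equalled that log10 ratio as deposited by the authors, with the arch on top, for 99.9% of its features (tolerance 1e-06), and its medians are 0. Scale and direction of the table were found from this match. No genome build is named in the files.

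From the intensities, limma 3.58.1 (R 4.3.3) corrected background (normexp, offset 50) and normalised each array by loess with control spots at weight 0. Channel signals followed from Aquantile scaling and include the offset. Spots marked as outliers (20 and 4) were dropped, saturated spots kept and array 2 turned. Of 41150 probes, 30520 passed the scanner's test of being well above background, in 1 region or both, on each array, and each of 21366 genes took its brightest such probe. The dye swap counts as 1 replicate. Across genes its arrays correlated with Pearson's r of 0.58 and Spearman's rho of 0.25.

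Member genes and lists were chosen with earlier results of these data known, and so were the groups of core and F1 subunits. Per complex the 2 highest and 2 lowest genes, isoform pairs, and genes with discordant probes were named in full. Ndufa4l2 was not analysed here, and 1 gene is counted but left out of the plot of single genes. Promoter tables from RefSeq (GRCm38.p6) gave sequences by symbol. Scripts were tested on simulated data. Alternatives were another offset, the software's ratios, the value table, median centring, each array alone, probe filters, the mean over probes, saturated probes left out, subunits only, processed signals and other folds, and, chosen after seeing the data, members by current symbol.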

Additional observations from a re-analysis of the deposited data

How the results depend on the processing

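No paired analysis was possible because each region is 1 pool, and the arrays are a technical dye swap. At 1.2-fold, 1 member gene and 1 member probe were higher in the arch (Cox6a2) and 1 was lower (Cox7a2l) with an offset of 0, with the scanner software's ratios and with the value table, where 5.20%, 6.68% and 6.68% of all genes passed. With median centring 1 was lower (Cox7a2l), where 3.80% passed. Median centring gave medians of -0.108 for all members, -0.105, -0.109, -0.079, -0.093 and -0.149 for complexes I to V, and 7 genes (8.97%) above 0; the median of all genes was -0.042. Without loess the other genes of the brightest group lay at -0.170, and 9.59% of them were above 0. Without array 2 or without array 1, the medians were 0.050 and 0.040 for all members, 0.042 and -0.00028 for complex IV and 0.033 and 0.025 for complex V, and 2 and 5 genes, and as many probes, were higher and 1 and 0 lower at 1.2-fold, where 5.53% and 4.83% of all genes passed. Complex II then had -0.004 and 0.108, and complex III 0.136 and 0.029. The mean over probes gave 0.034 for all members, and members by current symbol 0.034, with 0.038 for complex I and 0 of 15 added genes past 1.2-fold; the cause was not tested. At 1.3-fold with loess 0 members passed, where 134 of all genes were higher and 112 lower, but Cox7a2l passed with median centring; at 2-fold 0 passed with loess. Of the values for groups and counts, 166 moved by no more than their spread (for counts, 1.5 times) and 35 moved by more. For named genes, 317 of 359 moved by no more than their spread, some with a change of sign, and 42 moved by more. The offset of 50 shrinks the ratios of dim probes such as Cox6a2 and Cox4i2.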
